A study of Mus musculus with 2 samples.

Results

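En1 (ENSMUSG00000058665.7, chromosome 1, plus strand, 122498995 to 122505873, 2 exons) lies at the lower end of a long stretch in which GENCODE M1 annotates no other protein-coding gene, and the contacts described here are those of En1 with that stretch. Positions are on the mm9 build of the mouse genome. As viewpoints, 3 neighbouring bins of 5 kb were taken. The bin from 122495001 holds the start of En1 and is called the promoter bin, and the next 2 bins are called the first and second gene body bins. Each was set against the 110 bins of 5 kb from 122510001 to 123060000, which gave 330 bin pairs of the 275853 bin pairs with read pairs in the whole map. In the span, 108 of 110 bins had a balanced value, so 324 of the 330 pairs could be measured. The members were set by position and not by a contact value, although earlier results of these data were known when they were chosen.

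The data came from capture Hi-C, in which fixed chromatin is cut, religated and sequenced, so that each read pair joins 2 positions that lay close together in the nucleus, and probes enrich the library for 1 locus. Fore- and hindlimbs of wild-type mouse embryos at stage E10.5 were measured together, and no other genotype or treatment was in the map. The limbs were made into a cell suspension with trypsin, fixed in 2% PFA and cut with DpnII, and custom SureSelect probes captured the locus. The labels list 2 samples, both titled replicate 2, and the authors deposited 1 merged map of them. It has no replicate error and no contrast between groups, so no test was made and every interval below covers counting error only. Strain and the number of embryos are not given in the sources used here. Limb enhancers of En1 were not placed on this span, because their positions are not given in the sources used here.

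Engrailed-1, the product of En1, is a homeobox transcription factor known in the limb bud from the ventral ectoderm, where it keeps the dorsal signal Wnt7a out of ventral cells and so sets the dorsal-ventral axis of the paw. Genes of this kind are often controlled by enhancers that lie far from the promoter within the same topological domain. Whole limb buds were used, and most of their cells are mesenchyme, so the map is an average over cells that do and do not express En1. CTCF, a zinc finger protein that halts loop extrusion by cohesin, often marks the ends of such domains, and its sites there tend to point towards each other.

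The sequence just upstream of the En1 start is shown because it lies in the promoter bin, the whole of which served as the viewpoint. It was read from the NCBIM37 genome, the same assembly as mm9, on the plus strand at chr1:122498745-122498994. Capitals mark GATC, the site cut by DpnII in this assay:

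En1 upstream 250 bases: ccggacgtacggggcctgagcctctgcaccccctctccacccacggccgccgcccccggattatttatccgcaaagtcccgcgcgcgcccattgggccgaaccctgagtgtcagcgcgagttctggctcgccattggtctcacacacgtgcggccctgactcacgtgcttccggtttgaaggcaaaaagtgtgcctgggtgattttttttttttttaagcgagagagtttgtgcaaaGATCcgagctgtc

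This stretch holds 1 DpnII site, 22 CpG dinucleotides and 59.2% G and C. The 54 promoters of RefSeq genes in the map that were located on this build had medians of 8 CpG and 52.8%, and 22 of the 54 (40.7%) held GATC in the same 250 bases. The promoter bin as a whole has 13 DpnII sites, as do both gene body bins.

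The start of the long noncoding RNA gene Celrr, named B230209K01Rik in GENCODE M1 (ENSMUSG00000086664.2, plus strand, 122983982 to 123017533), lies in the part of the span that En1 contacted most beyond its expected level. Its upstream 250 bases, at chr1:122983732-122983981 on the plus strand, are shown beside those of En1:

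Celrr upstream 250 bases: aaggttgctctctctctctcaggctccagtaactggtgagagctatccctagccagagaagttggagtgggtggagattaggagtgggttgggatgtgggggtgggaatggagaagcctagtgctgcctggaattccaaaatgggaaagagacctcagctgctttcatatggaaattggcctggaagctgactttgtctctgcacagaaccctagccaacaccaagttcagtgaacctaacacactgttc

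The Celrr sequence holds no GATC and 0 CpG, and 50.8% of its bases are G or C. Neither sequence holds the letters CCAGNGGGC, a core of the CTCF motif searched on both strands, which 2 of the 54 promoters (3.70%) held.

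The 3 En1 bins were among the better covered bins of the map. Totals were 20217 read pairs for the promoter bin, 14813 for the first gene body bin and 19607 for the second, against a median of 10934.5 over all bins of the map. Pairs with both ends inside the bin made up 4611, 2859 and 3754 of these. Of its 15606 read pairs with other bins, the promoter bin had 6165 with the span, or 39.5% (Wilson 95% interval 38.7 to 40.3%). The first gene body bin had 5082 of 11954 there (42.5%, 41.6 to 43.4%) and the second 8562 of 15853 (54.0%, 53.2 to 54.8%), which borders on the span and so includes its closest neighbours. Single pairs rested on few reads: the promoter bin had a median of 46 read pairs per partner bin and a range of 0 to 365. The medians were 34.5 and 45 for the gene body bins, with ranges of 2 to 470 and 5 to 1978.

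**Figure D1:**
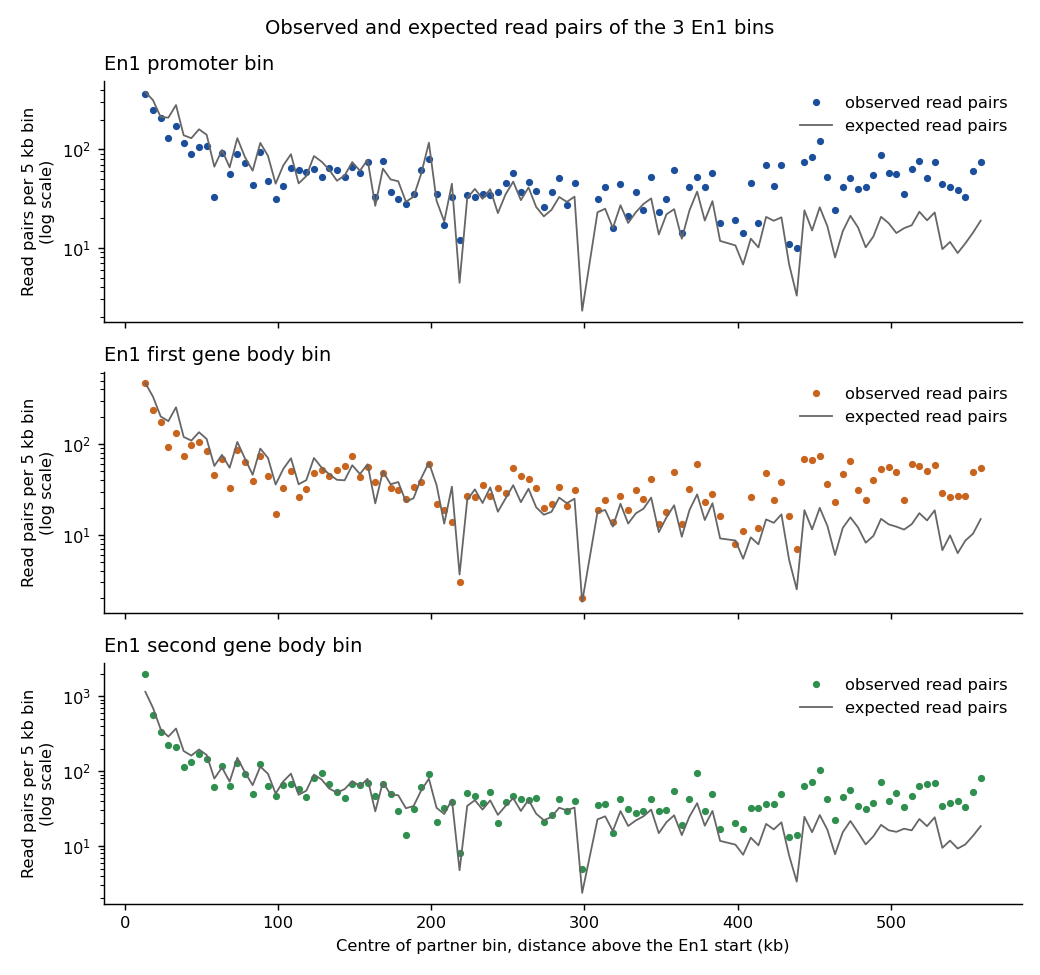
Read pairs (log scale) of each En1 bin with each 5 kb bin of the span, by distance of the partner bin above the En1 start in kb. Points are observed read pairs and lines are the expected read pairs; 1 bin with 0 read pairs from the promoter bin is not drawn, and most points lie above the line beyond about 260 kb, by more in the last 150 kb, in all 3 panels.

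Beyond about 260 kb, summed contacts of En1 exceeded those expected at their distance from all 3 viewpoints, and the excess was larger beyond about 400 kb. From the promoter bin, 304 read pairs were observed where 164 were expected in the 50 kb from 122860001, and 552 where 162 were expected in the 50 kb after that. The expected count scales the mean balanced value at the same distance by the 2 bins' own balancing factors, so that a ratio of observed over expected of 1 is the average of the map. Summed over the span, the ratio was 1.14 (exact Poisson 95% interval 1.11 to 1.17) for the promoter bin. It was 1.11 (1.08 to 1.14) for the first gene body bin and 1.21 (1.18 to 1.23) for the second. Of the 8562 read pairs of the second with the span, 1978 were with the bin next to it, where 1145 were expected. The median over single partner bins was 1.31, 1.28 and 1.33 in that order, where all pairs of the map at 5 to 560 kb had a median of 0.861. The sum over the span depended strongly on balancing, and with raw counts alone it was 2.16, 1.59 and 2.19. The expected value is then not scaled by any factor of the 2 bins, and the totals of the En1 bins lay above the median of the map.

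These averages hid a steep course along the span. In the promoter bin, the ratio was 0.77 (0.74 to 0.81) in the first 50 kb, 0.75 (0.69 to 0.81) in the next window and 0.96 (0.89 to 1.04) in the third. It was 0.92 (0.83 to 1.01) from 122660001 to 122710000, 1.10 (0.99 to 1.22) in the fifth window and 1.30 (1.16 to 1.46) in the sixth. The seventh window, 122810001 to 122860000, gave 1.53 (1.37 to 1.7) and the eighth 1.85 (1.65 to 2.08). The last 3 windows, from 122910001 to 123060000, gave 3.42 (3.14 to 3.71), 3.23 (2.95 to 3.52) and 3.55 (3.26 to 3.86). Contacts of the promoter bin were thus, with balancing, below the average of the map near the gene, at or near it from about 110 to 260 kb, and more than 3 times it in the last 150 kb.

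**Figure D2:**
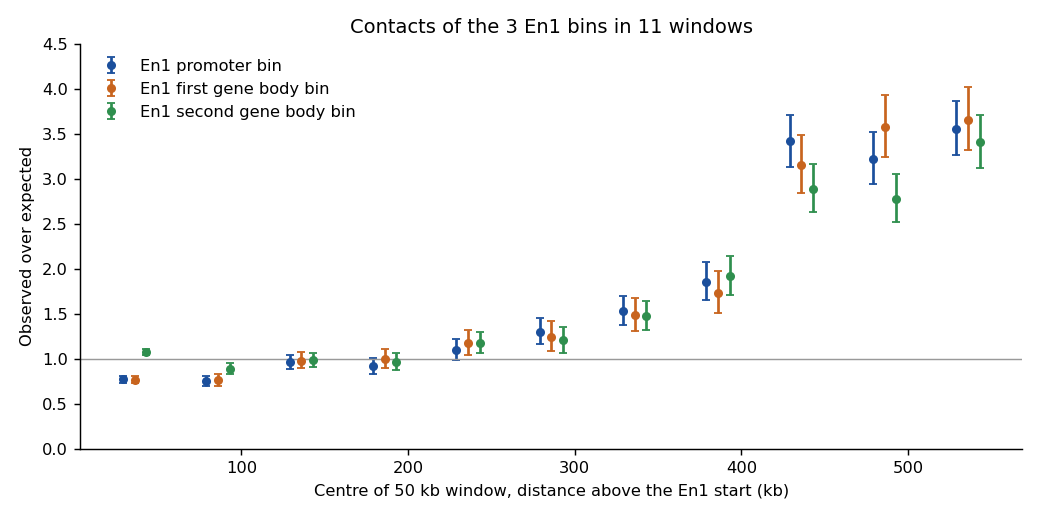
Observed over expected of the 3 En1 bins in 11 windows of 50 kb, by distance of the window centre above the En1 start in kb; points of one window are set side by side. Bars are exact Poisson 95% intervals, the line marks 1, and the last 3 windows lie between 2.78 and 3.66 for every viewpoint.

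The gene body bins followed the same course. The first gene body bin had 0.76 in each of its first 2 windows and 3.15, 3.58 and 3.66 in its last 3. The second had 1.08 (1.04 to 1.11) and 0.89 (0.83 to 0.95) in its first 2 windows and 2.89, 2.78 and 3.41 in its last 3. Its first window includes the bin next to it, which held 1978 of the 3923 read pairs there at a ratio of 1.73. The values below 1 near the gene did not hold on raw counts without balancing, where the first 2 windows gave 1.49 and 1.51 from the promoter bin and 1.12 and 1.15 from the first gene body bin, and the second window gave 1.75 from the second gene body bin. The last 3 windows were the highest 3 from each viewpoint on raw counts too, between 5.10 and 6.31 from the promoter bin.

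The place where the ratio went up most was searched by comparing 50 kb on either side of each bin edge, a search chosen after the profile had been seen. For the promoter bin it lay at 122905001, 406 kb above the En1 start, where the ratio went from 1.81 (1.62 to 2.02) to 3.47 (3.18 to 3.77). That is a 1.92-fold difference (1.67 to 2.21). For both gene body bins it lay at 122925001, with a 1.97-fold (1.66 to 2.34) and a 1.55-fold (1.34 to 1.81) difference. Other ways of computing the expected value moved these places within 122905001 to 122940001. The position is the highest of many compared, so its fold is the largest found and not a typical one.

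The last 150 kb were set apart as a stretch after the profile had been seen. Over them the promoter bin had 1597 read pairs where 470 were expected, a ratio of 3.40 (3.24 to 3.57). The first gene body bin had 1241 against 359, or 3.46 (3.27 to 3.66), and the second 1411 against 467, or 3.02 (2.87 to 3.19). In the first 100 kb the promoter bin had 2209 read pairs where 2880 were expected, or 0.77 (0.74 to 0.80). On raw counts without balancing, the ratio of the last 150 kb was 5.48 from the promoter bin and 4.75 from the second gene body bin. The 300 kb between these stretches gave 1.14 (1.10 to 1.19), 1.16 (1.11 to 1.22) and 1.17 (1.12 to 1.22) for the 3 viewpoints.

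A partner bin was called enriched when it had at least 10 read pairs and the lower bound of its ratio exceeded 1.5. The promoter bin had 30 enriched partners of 108 (27.8%), the first gene body bin 29 (26.9%) and the second 31 (28.7%). Among all pairs of the map at 5 to 560 kb, 2.77% were called enriched. On raw counts without balancing the numbers were 58, 37 and 64, against 10.2% of all pairs of the map. With balancing, most enriched partners lay at the far end: 27, 26 and 27 of the 30 measured bins of the last 150 kb, against 4.04% of all pairs of the map at 400 to 560 kb. On raw counts, 27, 25 and 27 of these 30 bins were enriched, against 7.86% of all pairs at that distance, and so were 31, 12 and 37 of the 78 measured bins before them. The far bins were thus called either way, while the small number of calls before them held with balancing only. The last 150 kb were chosen after the profile had been seen, so a high share of calls there was favoured by that choice. A call also needs 10 read pairs, which 62.4% of all pairs of the map had at 5 to 560 kb and 39.2% at 400 to 560 kb. From the 3 viewpoints, 107, 104 and 106 of the 108 measured partner bins had them. The shares over all pairs thus include many pairs that could not be called. The enriched partners of the 3 viewpoints were 35 different bins, of which 26 were enriched from all 3, or 86.7%, 89.7% and 83.9% of the lists. The viewpoints are neighbours in 1 map, so this overlap is no replication.

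Enrichment was also broad rather than limited to a few bins. The single bins of the last 150 kb ranged from 1.61 to 5.59 for the promoter bin, with a median of 3.27, from 1.52 to 5.75 (median 3.5) for the first gene body bin and from 1.74 to 4.72 (median 2.93) for the second. The 3 bins there that were not enriched from the promoter bin were 122910001 to 122915000, 122930001 to 122935000 and 122935001 to 122940000. They had 18, 11 and 10 read pairs and ratios of 1.78 (1.06 to 2.82), 1.61 (0.80 to 2.88) and 3.06 (1.47 to 5.62). Depth limited the last of these calls: its bin total was 2579, against a median of 14471.5 for the last 150 kb.

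**Figure D3:**
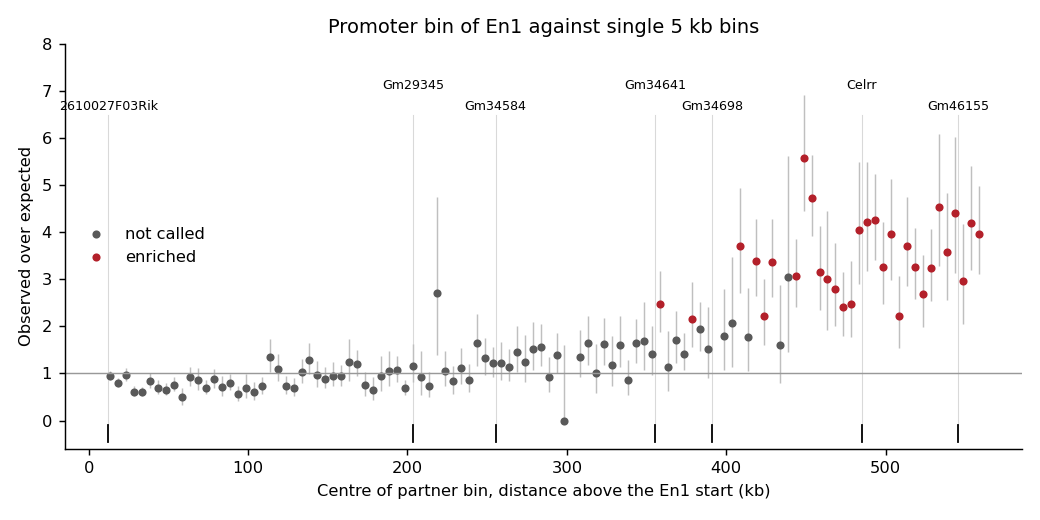
Observed over expected of the promoter bin with each 5 kb bin, by distance above the En1 start in kb; bars are exact Poisson 95% intervals, colour marks the call, the horizontal line marks 1 and vertical lines mark the first located start of each RefSeq gene. Of the 30 enriched bins, 27 lie in the last 150 kb, around and beyond the start of Celrr.

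The highest single partner in the span was the same bin from each viewpoint, 122945001 to 122950000, centred 449 kb above the En1 start. It had 84 read pairs with the promoter bin where 15 were expected, a ratio of 5.59 (4.46 to 6.92). It had 66 where 11.5 were expected from the first gene body bin, or 5.75 (4.45 to 7.31), and 72 where 15.3 were expected from the second, or 4.72 (3.69 to 5.94). Its neighbours gave 3.07 and 4.73 from the promoter bin, and the interval of the neighbour above it, 122950001 to 122955000, overlapped its own. GENCODE M1 annotates no gene in this bin, which has 11 DpnII sites and a total of 12805, exceeded by 40.2% of the bins of the map.

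Of 5 further high partners of the promoter bin, 4 lay beyond it and 1 closer to En1. The bin 122990001 to 122995000, inside Celrr, had 88 read pairs and a ratio of 4.26 (3.42 to 5.25). The bin 123030001 to 123035000 had 44 and 4.53 (3.29 to 6.08), and the bin 123050001 to 123055000 had 60 and 4.20 (3.21 to 5.41). The bin 123010001 to 123015000, also inside Celrr, had 63 and 3.71 (2.85 to 4.75). The nearest to En1 of these partners, 122905001 to 122910000, had 46 and 3.71 (2.72 to 4.95), while the bins on either side of it gave 2.06 and 1.78. The intervals of these 5 bins overlap one another, so their order is not resolved at this depth.

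The bins 123050001 to 123055000 and 123010001 to 123015000 were also among the 3 highest of the first gene body bin, at 4.76 (3.52 to 6.30) and 4.58 (3.49 to 5.90). The second gene body bin had its next highest values in 123055001 to 123060000, at 4.46 (3.54 to 5.53), and in 123040001 to 123045000, at 4.33 (3.09 to 5.89). The former is the last bin of the span and borders on a region of still higher contact given further on.

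Before the last 150 kb, 3, 3 and 4 partners were enriched with balancing, against 31, 12 and 37 on raw counts. The bin 122855001 to 122860000 was enriched from all 3 viewpoints, with ratios of 2.47, 2.31 and 2.10, and so was 122905001 to 122910000. The bin 122875001 to 122880000 was enriched from the promoter bin alone and 122870001 to 122875000 from the gene body bins alone. These are calls on either side of a threshold, and the difference between viewpoints in these bins was not tested. The bin from 122510001, which borders on the second gene body bin, was enriched from it at 1.73 (1.65 to 1.81) with 1978 read pairs.

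The 3 partners of the promoter bin with the lowest upper bounds, among those with at least 10 read pairs expected, lay within 60 kb of the gene. Of these, 122555001 to 122560000 had 33 read pairs where 66.7 were expected, a ratio of 0.49 (0.34 to 0.69). The bin 122530001 to 122535000 had 171 where 281 were expected, or 0.61 (0.52 to 0.71), and 122525001 to 122530000 had 129 where 210 were expected, or 0.62 (0.51 to 0.73). On raw counts without balancing, the ratios of the last 2 were above 1, at 1.82 and 1.19. A partner was called depleted when at least 10 read pairs were expected and the upper bound lay below 0.667. The promoter bin had 0 depleted partners, the first gene body bin 2 and the second 1, of 108 each, against 4.31% of all pairs of the map at 5 to 560 kb.

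Promoter and gene body were compared window by window. Against the first gene body bin, the promoter bin's ratio was 1.02 times as high over the whole span (0.99 to 1.06), and in all 11 windows the interval of that quotient held 1. In the last 150 kb it was 0.98 (0.91 to 1.06). Without balancing, which leaves the bin totals of 20217 and 14813 uncorrected, this quotient was 1.36 over the span. Against the second gene body bin, the quotient was 0.72 (0.68 to 0.76) in the first window and 0.84 (0.76 to 0.93) in the second. The second gene body bin borders on the first window. There, 1978 of its 3923 read pairs were with the bin next to it, where 1145 were expected. Over the whole span the quotient was 0.94 (0.91 to 0.98), and without the first window it was 1.01 (0.97 to 1.05). It was above 1 in the window from 122910001, at 1.18 (1.04 to 1.34), and in the one from 122960001, at 1.16 (1.02 to 1.33). Over the last 150 kb it was 1.12 (1.05 to 1.21). The 2 gene body bins differed likewise, with the first at 1.14 times the second (1.06 to 1.24) over the last 150 kb.

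In single partner bins such differences were at the limit of the depth. Of 105 bins with at least 20 read pairs from the promoter bin and first gene body bin together, 9 had a quotient whose interval excluded 1. The same held for 13 of 107 bins between the promoter bin and the second gene body bin, and for 13 of 106 between the gene body bins. No adjustment was made for the number of bins compared.

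The surroundings of En1 were read the same way, by taking each 5 kb bin around the gene as a viewpoint on the last 150 kb. This scan was chosen after the profile had been seen. Among 69 bins from 122400001 to 122755000 with sufficient totals, the highest ratio was 3.70 (3.5 to 3.90), in the bin just below the promoter bin. The bin from 122485001 came next with 3.55 (3.36 to 3.74), followed by the first gene body bin with 3.46 and the promoter bin with 3.40. The intervals of these 4 bins overlap, so their order is not resolved. The second gene body bin came in at order 7, at 3.02.

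The level was lower further from the gene on both sides. Summed, the 3 En1 bins gave 3.28 (3.18 to 3.38), the 6 bins below them 2.83 (2.75 to 2.91) and the 6 bins above them 2.81 (2.75 to 2.88). The 12 bins from 122540001 to 122600000 gave 2.42 (2.38 to 2.46), and the 12 bins from 122405001 to 122465000 gave 1.62 (1.58 to 1.66). The En1 bins thus lay on a broad maximum that also takes in bins outside the gene. The 6 bins below ranged widely, from 1.71 to 3.85, and the highest of them had a low total.

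**Figure D4:**
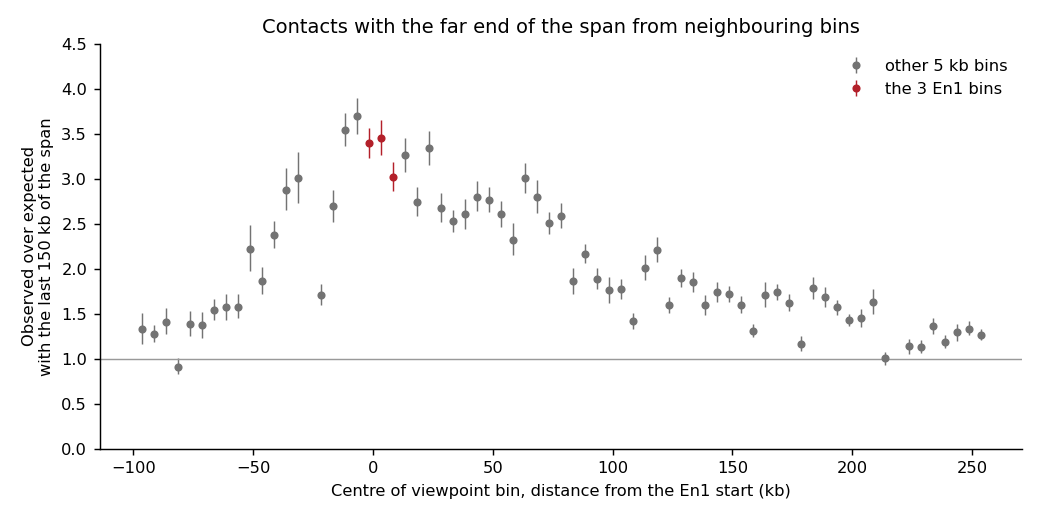
Observed over expected with the last 150 kb of the span for each 5 kb bin, by distance of the bin centre from the En1 start in kb, negative values lying below the gene. Bars are exact Poisson 95% intervals, and the 3 En1 bins lie between 3.02 and 3.46 within a broad maximum whose top, 3.70, is the bin just below the promoter bin.

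In the whole map, 718 bins with sufficient totals had 550 kb of map above them. By their ratio over those 550 kb, the promoter bin ranked 231st with 1.03, the first gene body bin 219th with 1.04 and the second 52nd with 1.21, where the median was 0.944. Limited to 100 to 550 kb, they ranked 50th, 39th and 46th. Limited to 400 to 550 kb, a range chosen after the profile had been seen, they ranked 5th, 3rd and 12th, at 3.31, 3.41 and 3.01 against a median of 0.857. The first rank at that range went to 122520001 to 122525000, 23.5 kb above the En1 start, at 3.97. The range moves with the bin, so for bins above the gene it runs past the end of the span. Contacts of En1 itself were higher there, as given further on. Over the fixed last 150 kb, the bin from 122520001 had 3.34 (3.15 to 3.54). The first gene body bin had 3.46 and the promoter bin 3.40 over the same stretch. Their intervals overlap, so that order is not resolved. Of the 20 highest bins at that range, 19 lay between 122485001 and 122580000. The rank of En1 is thus shared with its surroundings, but bins above the gene were ranked on a stretch that runs beyond the span.

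Pairs of other bins inside the same stretch, from 122470001 to 123060000, gave a similar course with distance. Their ratio was 0.943 (0.94 to 0.947) at 5 to 100 kb and 1.06 (1.05 to 1.07) at 100 to 200 kb, where the En1 bins had 0.898 (0.879 to 0.917) and 0.941 (0.908 to 0.975). At 200 to 300 kb the other pairs had 1.27 (1.26 to 1.29) and En1 1.14 (1.09 to 1.19), and at 300 to 400 kb they had 1.7 (1.68 to 1.72) and En1 1.57 (1.5 to 1.65). At 400 to 550 kb the order turned, with 2.51 (2.47 to 2.54) for 610 other pairs and 3.20 (3.10 to 3.30) for 90 pairs of the En1 bins. By band and with balancing, the En1 bins were therefore below the rest of the stretch up to 400 kb and above it beyond. The differences exceeded the counting error. These bands were not compared on raw counts, where the ratios of En1 below 1 near the gene did not hold. Distances inside a band were not matched, and fewer other pairs fit in the stretch as distance grows. Because the ratio also rose with distance, the difference at 400 to 550 kb was not separated from distance within the band.

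On the other side of the gene, the same distances gave far fewer contacts. The promoter bin had 6165 read pairs with the span and 2013 with the bins at equal distances at lower coordinates, so that 75.4% (74.4 to 76.3%) lay above, where 52.7% was expected. The ratio of observed over expected was 1.14 above and 0.41 (0.40 to 0.43) below, a 2.75-fold difference (2.61 to 2.89). The difference was 2.47-fold (2.34 to 2.60) for the first gene body bin and 2.22-fold (2.14 to 2.31) for the second.

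By distance, the difference between the sides of the promoter bin was 2.18-fold (2.00 to 2.36) at 15 to 100 kb and 4.22-fold (3.77 to 4.73) at 400 to 560 kb. Below the gene the ratio stayed under 1 at every distance, at 0.310 at 100 to 200 kb and 0.790 at 400 to 560 kb. At 400 to 560 kb the first gene body bin had a 5.09-fold (4.42 to 5.87) and the second a 4.08-fold (3.62 to 4.62) difference.

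**Figure D5:**
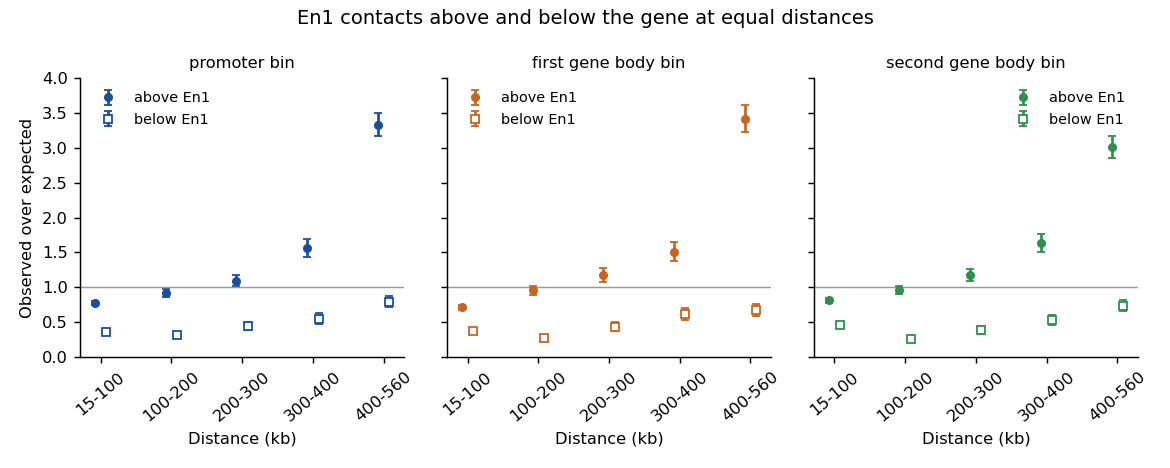
Observed over expected of the 3 En1 bins at equal distances above (filled circles) and below (open squares) the gene, in 5 distance bands in kb. Bars are exact Poisson 95% intervals and the line marks 1; at 400 to 560 kb the bins above reach 3.01 to 3.42 while those below are at 0.67 to 0.79.

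Just above the span the contacts were higher still. From 123060001 to 123090000 the promoter bin had 1109 read pairs and a ratio of 11.1 (10.4 to 11.7), and the gene body bins had 9.36 (8.68 to 10.1) and 8.30 (7.74 to 8.89). Their intervals lie above those of the last 150 kb of the span.

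GENCODE M1 annotates 1 gene in the span, the long noncoding RNA gene Celrr. RefSeq lists more noncoding RNA genes there on a later build, and each of its 54 listed gene starts in the map was found once, by its exact promoter sequence, in the mm9 sequence. In the span this located 10 starts of 7 genes, all long noncoding RNAs. The start of 2610027F03Rik nearest to En1, at 122511252, lay 12.3 kb above the En1 start, in a bin with a ratio of 0.96 (0.86 to 1.06) from the promoter bin and 1.73 from the second gene body bin next to it. Its 2 other bins gave 0.85 and 0.71 from the promoter bin. The bins of Gm29345 at 122702659, Gm34584 at 122754229 and Gm34641 at 122854236 gave 1.16 (0.81 to 1.62), 1.21 (0.92 to 1.57) and 1.41 (0.96 to 2.01). The start of Gm34698, at 122890255, lay in a bin without a balanced value.

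The starts of Celrr and Gm46155 were the located starts in enriched bins from all 3 viewpoints. The bin of the Celrr start had 41, 24 and 31 read pairs with the promoter, first and second gene body bins, and ratios of 4.05 (2.90 to 5.49), 2.93 (1.88 to 4.36) and 2.95 (2.01 to 4.19). The bin of the Gm46155 start, at 123044564, had 39, 27 and 40 read pairs and ratios of 4.40 (3.13 to 6.02), 4.30 (2.83 to 6.25) and 4.33 (3.09 to 5.89). The contacts of Celrr did not differ from those of its surroundings beyond counting error. The 8 bins of Celrr together had 1.08 times (0.96 to 1.2) the ratio of the other 22 bins of the last 150 kb from the promoter bin, 1.07 times (0.95 to 1.21) from the first gene body bin and 0.93 times (0.82 to 1.05) from the second.

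Enriched bins were close to the rest of the span in composition. The 26 bins enriched from all 3 viewpoints had a median of 43.9% G and C, 11 DpnII sites and a bin total of 14793. The 73 bins enriched from none had 43.8%, 12 sites and 15826, and all measured bins of the map had 44.0%, 13 sites and 11085. The letters CCAGNGGGC occurred on either strand in 4 of the 26 bins (15.4%), in 7 of the 73 (9.59%) and in 15.5% of 936 measured bins of the map. The share of bins with these letters among the 26 is thus close to that of the map.

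The 4 matches in bins enriched from all 3 viewpoints are shown with 20 bases on either side, each written 5′ to 3′ on the strand of the match, with the matched letters in capitals. Letters on the minus strand run towards En1:

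chr1:122953577-122953625, minus strand: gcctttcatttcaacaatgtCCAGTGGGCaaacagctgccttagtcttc

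chr1:122969751-122969799, plus strand: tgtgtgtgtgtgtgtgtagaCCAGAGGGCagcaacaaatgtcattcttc

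chr1:123004747-123004795, minus strand: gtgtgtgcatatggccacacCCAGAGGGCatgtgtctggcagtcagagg

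chr1:123026827-123026875, minus strand: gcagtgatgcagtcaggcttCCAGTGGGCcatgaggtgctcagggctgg

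Of these 4 matches, 3 lay on the minus strand and 1 on the plus strand. Among measured bins of the span, 6 held a match on the plus strand and 6 on the minus strand, and in the map 77 and 76 did. A preference for either strand was not tested. Of the 4 matches shown, the third lies in an intron of Celrr and the others between genes. Their bins had ratios of 4.73, 2.78, 3.96 and 3.23 from the promoter bin. The highest partner, 122945001 to 122950000, held no match. In the En1 bins there was 1 match, on the minus strand in the first exon of En1. A match gives letters only, and binding of CTCF was not measured here.

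Few bins of the span were poorly covered. The bins 122800001 to 122805000 and 122890001 to 122895000, with totals of 14 and 803, had no balanced value and no read pair with any En1 bin. The bins 122715001 to 122720000, 122795001 to 122800000 and 122935001 to 122940000 had totals of 2036, 442 and 2579, under 25% of the median of the map. The promoter bin had 0 read pairs with 122795001 to 122800000, where 2.3 were expected, and the upper bound of its ratio was 1.61.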

How the data were processed

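A pair of wild-type limb samples was measured by capture Hi-C, and the deposited map merges them. Per the labels' protocols, cells were fixed in 2% PFA, cut with DpnII and ligated. The submitters' processing notes name Bowtie2 2.3.4.1, Juicer 1.7.6, SAMtools and mm9. The file names, whose meaning is not stated further, carry HiCUP, a mapping quality of 30 and 50 bp. The authors deposited raw counts of read pairs per bin pair and a balanced signal named KR, read here as Knight-Ruiz balancing. The map covers 119650001 to 124400000 and holds 6484654 read pairs. At 5 kb, 14 of 950 bins lacked a KR value and were left out, missing pairs counted as 0, and 128 bins lay under 25% of the median total.

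The expected count was the mean KR value per distance times both balancing factors, which raw counts and KR values gave. Python 3.11.15, numpy 2.4.6, scipy 1.17.1 and pandas 2.3.3 were used. Calls were checked only on Poisson counts simulated from the same expected values. Such counts cannot show errors in the expected values or spread beyond counting error. With 1 merged map there is no test and no p-value. Quotients of 2 ratios have exact intervals from the binomial share of both counts. No molecular identifiers are listed for the read pairs. Because the merged map has no replicate error, intervals cover counting error only, and the expected value is taken as fixed. Named partners were the 6 of the promoter bin and 3 of each gene body bin with the highest lower bounds, over 2 bins apart and with at least 10 read pairs, and the 3 lowest upper bounds of the promoter bin with at least 10 expected. All located gene starts and poorly covered bins in the span were named too. The members, settings and lists were chosen with earlier results of these data known. RefSeq starts, listed on GRCm38, were placed on NCBIM37 by exact sequence. Alternatives were raw counts, 10 kb bins, medians per distance, an expected value without low bins, and other thresholds, minimums and windows.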

Additional observations from a re-analysis of the deposited data

How the results depend on the processing

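The far contacts were above the average of the map under every alternative run: over the last 150 kb the ratio ranged from 3.36 to 5.48 for the promoter bin, 3.39 to 4.31 for the first gene body bin and 2.98 to 4.75 for the second. Values are given below in the order promoter bin, first and second gene body bin. Raw counts without balancing gave span ratios of 2.16, 1.59 and 2.19, highest windows of 6.31, 4.96 and 5.91, and lowest windows of 1.49, 1.12 and 1.75, which turned the values below 1 near the gene. The first window was then 1.49 and 1.12 and the second 1.51, 1.15 and 1.75, and the low partners from 122530001 and 122525001 were at 1.82 and 1.19. Raw counts also gave 58 and 64 enriched partners for the promoter and second gene body bins, 1 and 0 depleted ones, quotients between the sides of 3.06, 2.69 and 2.32, and promoter quotients of 1.36 and 0.985 against the gene body bins. Bins of 10 kb gave span ratios of 1.22 and 1.21 for promoter and gene body, a highest window of 3.87, lowest windows of 0.818 and 0.875, and 18 enriched partners, 1 depleted partner and a quotient between the sides of 2.33 for the gene body, with fewer bins by construction. Medians per distance gave span ratios of 1.28, 1.24 and 1.33 and highest windows of 4.47, 4.59 and 4.24. An expected value without low bins gave 1.19, 1.17 and 1.26. Both left 1 depleted partner of the first gene body bin. A threshold of 1.2 gave 6, 6 and 3 depleted partners, and a threshold of 2 gave 0 depleted partners for either gene body bin and 19 enriched ones for the second. Sums of 3 bins gave 1 and 0 depleted partners for the gene body bins. Windows of 25 kb gave highest values of 4.04 and 3.87 for the promoter and second gene body bins and lowest values of 0.689, 0.682 and 0.792. Windows of 110 kb turned the lowest value of the second gene body bin to 1.00. By distances of 100 to 550 kb the ranks of the first 2 viewpoints were 50 and 39, by 400 to 550 kb the ranks were 5, 3 and 12, and among all bins with a KR value the second gene body bin ranked 104. Apart from the settings that show it by construction, the cause was not tested. Of 121 single window values 68 moved beyond the main interval and 5 turned, and of 60 values of named partners 15 moved and 2 turned.

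Depth limits single bins, with a median of 46 read pairs per partner from the promoter bin, more than windows. No paired analysis was possible because the deposited map merges both samples, and leaving out each sample could not be run for the same reason. The last 150 kb, the step, the scan and the rank at 400 to 550 kb were chosen after seeing the data.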
